A study of Sus scrofa with 18 samples.

Results

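The interaction of Bacillus subtilis with poly I:C was followed in pig alveolar macrophages, phagocytes that live on the inner surface of the lung and clear inhaled particles and microbes. It asks whether the change that B. subtilis brought differed between cells that also received poly I:C and cells that did not. The 12 libraries that bear on it, of 18 in the series, form 4 groups of 3: untreated control, poly I:C, B. subtilis, and B. subtilis together with poly I:C (the combined treatment below). All cells came from the lungs of healthy Danish Landrace-Yorkshire pigs, were kept ex vivo for 24 h under these conditions, and each group has libraries from pigs numbered 1 to 3. The other 6 libraries, of Enterococcus faecium with and without poly I:C, entered the same fit. No genetic change was made, all groups are primary cells, and the sources used here do not give the dose of poly I:C, the strain and viability of the bacteria or the age of the pigs.

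Poly I:C, a man-made RNA duplex, stands in for a viral genome. Macrophages sense such RNA through TLR3 in endosomes and MDA5 in the cytosol, which lead to IRF3 and interferon beta and, in parallel, to NF-kB. Gram-positive bacteria such as B. subtilis carry lipoproteins that TLR2 detects through MyD88, a route that ends in NF-kB and in cytokine and chemokine genes. NF-kB targets can therefore be reached from both stimuli, while interferon-stimulated genes depend mainly on the interferon route.

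The interaction was computed for each gene on the log2 scale, as the difference between combined treatment and poly I:C minus the difference between B. subtilis and control. A value of 0 means that the fold changes of the single treatments multiply. A negative value means that the combined level was below that product, and a positive value that it was above. Levels are counts per megacount (CPM) scaled by TMM, given as mean ± SD (n = 3), and adjusted p-values are two-sided, from edgeR's quasi-likelihood test with Benjamini-Hochberg adjustment over 13592 genes.

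Totals were 16.3 to 27.3 M (megacounts) per library over the 12. TMM factors followed the treatment, with 1.27 to 1.33 in control, 0.849 to 0.939 with poly I:C, 1.03 to 1.08 with B. subtilis and 0.664 to 0.863 with the combined treatment. The median interaction of all genes was -0.02 with these factors and 0.03 with library totals alone. Of the 10 defining markers of alveolar macrophages, among them CD163, SIGLEC1, MRC1 and PPARG, all had counts in all 4 groups. FABP4 was the lowest at 0.827 to 5.86 CPM, and MARCO ranged from 6.62 to 189 CPM over the 12 libraries. Their summed level was 1700 to 2320 CPM in control, 2158 to 2769 with poly I:C, 1528 to 1849 with B. subtilis and 1998 to 2463 with the combined treatment. Summed neutrophil and mast cell markers were at 39.2 to 124, 35.4 to 69, 39 to 85.2 and 35.9 to 50.7 CPM in this order. Those of endothelium and fibroblasts were at 3.39 to 9.93, 3.22 to 4.55, 2.85 to 5.42 and 3.59 to 4.52 CPM. Within these lists MPO, CPA3 and CDH5 were at 0 in all 12, while other members had counts. The summed markers of T, NK and B cells were at 377 to 479, 313 to 422, 283 to 382 and 344 to 384 CPM in the same order. Summed epithelial markers ranged more widely, at 29.4 to 154, 40.7 to 235, 134 to 392 and 67.7 to 346 CPM, and the monocyte and dendritic cell markers at 876 to 2648, 1249 to 5240, 4713 to 6252 and 3374 to 8128 CPM. The part of other cells in the results was not tested, and in bulk RNA fewer cells of a type and less RNA per cell cannot be told apart.

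Deviations from the group means fell into 3 sets of libraries, called A, B and C, each holding 1 library of every treatment. Among the 4 groups, libraries of the same set deviated together, with correlations across genes of 0.43 to 0.73 over 18 pairs, measured on chromosomes that were not used to find the sets. The pig numbers of the labels followed these sets in control, poly I:C and the combined treatment, but the B. subtilis libraries went against them. Pigs 1, 2 and 3 of that group fell into sets B, C and A. The E. faecium libraries, which entered the same fit, did not follow the numbers either. Pigs 1, 2 and 3 fell into sets C, B and A with E. faecium alone. With E. faecium and poly I:C they fell into sets B, C and A. Results are therefore given without a block and with the library set as a block. The combined library of pig 2, in set B, stood apart from its group, at a root mean square log2 distance of 0.784 from the group mean, against 0.399 to 0.679 for the other 11 libraries.

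For nearly all genes no departure from multiplied fold changes was detected, which does not show that the fold changes multiplied. On simulated data the fit without a block recovered 4% of changes of 1 log2 unit and 42% of those of 2, in genes above a minimum mean level. Without a block, 5 of 13592 genes (0.0368%) departed from the product, 1 above (0.00736%) and 4 below (0.0294%), while 1216 genes had an unadjusted p under 0.05. With the library set as a block the count was 521 genes (3.83%), of which 203 were above (1.49%) and 318 below (2.34%). Genes on chromosomes not used to find the sets gave 290 of 7378 (3.93%), against 231 of 6214 (3.72%) on those used. Libraries of a set deviated together on both, so this split cannot show that the block is free of selection. P-values with the set block take the sets as known, although they were found from these same libraries. DESeq2 called 115 genes, 29 above and 86 below. The counts depended on single libraries and sets. Without a block edgeR called 514 genes when the combined library of pig 2 was left out, and 0 to 7 when any 1 of the other 11 libraries was. With the block it called 2 genes without set A, 1910 without set B and 0 without set C, so the count with the block depends on sets A and C, and the calls with the set block given below are to be read with that limit.

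The single treatments give the scale against which this stands. Poly I:C changed 3055 genes (22.5%), 1757 of them higher (12.9%). B. subtilis changed 604 (4.44%), 374 of them higher (2.75%) and 230 lower (1.69%). The combined treatment changed 4834 (35.6%) against control, 2576 of them higher (19%). Combined treatment differed from B. subtilis alone at 2566 genes (18.9%), 1506 of them higher (11.1%). With the set block the counts were 5668 (41.7%) for poly I:C, 2504 (18.4%) for B. subtilis, 7416 (54.6%) for the combined treatment against control and 5624 (41.4%) against B. subtilis. Against poly I:C alone it differed at 0 genes by edgeR (0%), with and without the block, with 1423 genes at an unadjusted p under 0.05 without it and 3193 with it, and at 28 genes by DESeq2. Without the combined library of pig 2, 2087 genes passed by edgeR. The split of these calls depends on the scaling: with library totals alone the median log2 difference of all genes moved from -0.01 to -0.54 for poly I:C, from -0.02 to -0.33 for B. subtilis and from -0.02 to -0.82 for the combined treatment. The calls were then 952 higher and 3837 lower for poly I:C, 259 and 791 for B. subtilis, 957 and 6151 for the combined treatment against control, and 580 and 2986 against B. subtilis. These comparisons share libraries, so their overlap is not read as a result.

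**Figure D1:**
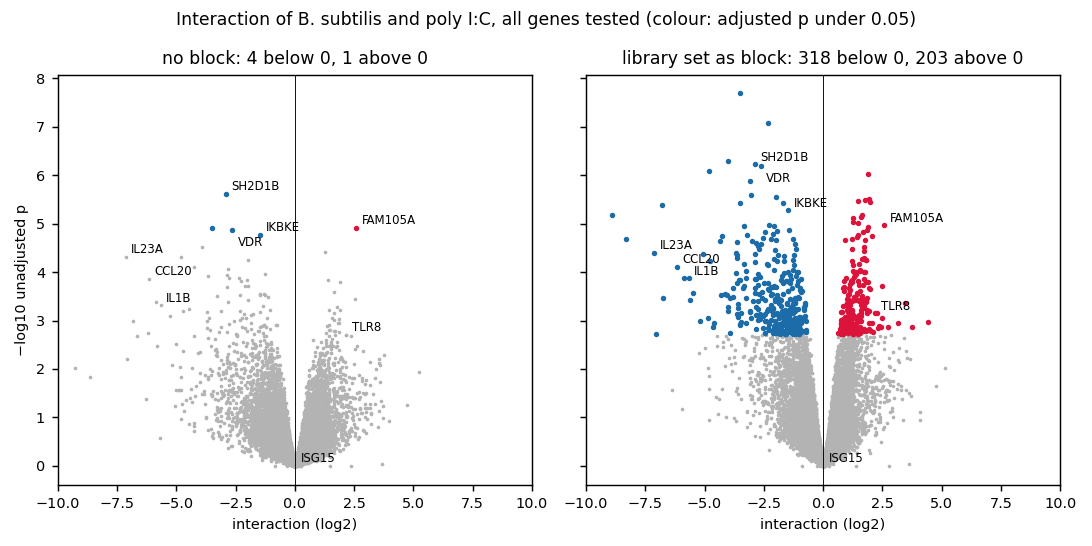
Log2 interaction (x axis) against the unadjusted p on a −log10 scale (y axis) for all 13592 genes, without a block and with the library set as a block; colours mark genes past an adjusted p of 0.05. Without the block 5 genes pass, 4 of them on the negative side, and with it 203 pass on the positive side and 318 on the negative side.

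SH2D1B and VDR were raised by B. subtilis on its own and were lower again when poly I:C was present. SH2D1B encodes EAT-2, an adaptor that binds the cytoplasmic tails of SLAM-family receptors, and lies on chromosome 4 at 88097534 to 88129792 (Sscrofa11.1; gene ID 100620669). In pigs 1, 2 and 3 it stood at 11.1, 12.7 and 10 CPM in control, at 20.9, 23.4 and 28.4 CPM with poly I:C, at 44.1, 78.2 and 72 CPM with B. subtilis, and at 15.3, 20.5 and 19.3 CPM with the combined treatment. All 3 B. subtilis libraries lay above every other library, and the 3 combined libraries lay between control and poly I:C, overlapping neither. B. subtilis raised it by 2.52 on the log2 scale (adjusted p = 0.000516) and poly I:C by 1.11 (adjusted p = 0.0108), yet the combined level was 1.82 below B. subtilis alone (log2 -1.82, adjusted p = 0.000959). The interaction was -2.92 (SE 0.4, adjusted p = 0.033), and -3.15, -1.99 and -3.52 within sets A, B and C. The combined level reached 13.5% of the 135 CPM that multiplied folds would give and 23.6% of the 77.8 CPM that added CPM changes would give, so it fell short on both scales.

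VDR, the nuclear receptor for the active form of vitamin D (chromosome 5, 78205807 to 78266505; gene ID 396628), had the same shape. Its level was 14.6, 20.7 and 15.1 CPM in control, 35.8, 64.1 and 46.2 CPM with poly I:C, 135, 153 and 95.3 CPM with B. subtilis, and 51, 71.8 and 54.1 CPM with the combined treatment. The B. subtilis libraries stood above all others, while poly I:C and the combined treatment overlapped. Poly I:C raised VDR by 1.53 (adjusted p = 0.0019) and B. subtilis by 2.93 (adjusted p = 0.000435), and the combined treatment was lower than B. subtilis alone (log2 -1.12, adjusted p = 0.0181). The interaction was -2.65 (SE 0.42, adjusted p = 0.0456), with -2.19, -2.54 and -3.11 in sets A, B and C. The combined mean of 59 ± 11.2 CPM was 36.9% of the added expectation of 160 CPM.

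IKBKE and a pseudogene filled out the calls below the product, both with a combined level like that of a single stimulus. IKBKE encodes IKK epsilon, the kinase that, with TBK1, phosphorylates IRF3 (chromosome 9, 67123055 to 67147991; gene ID 100519508). It stood at 39.6, 48.5 and 44.3 CPM in control, 101, 112 and 120 CPM with poly I:C, 135, 133 and 126 CPM with B. subtilis, and 114, 128 and 116 CPM with the combined treatment. The 3 treated groups all lay above control, and the combined libraries overlapped both single treatments. The interaction was -1.46 (SE 0.24, adjusted p = 0.0466), in a range of -1.63 to -1.28 over the sets, and the combined level was 60.3% of the added expectation of 198 CPM. LOC100626929 (chromosome 14, 122714625 to 122781140) rose from 0.342 ± 0.132 CPM in control to 2.87 ± 0.684 with poly I:C, 4.97 ± 1.25 with B. subtilis and 3.61 ± 0.896 with the combined treatment (interaction -3.51, SE 0.56, adjusted p = 0.0456). It overlaps ACSL5, a fatty acid CoA ligase gene at 179 CPM, and since the strand used in counting is not given, its reads cannot be told from those of ACSL5.

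FAM105A was the only call above the product in the fit without a block. It did not pass with another scaling (RLE size factors), with library totals, without the filter on low counts or in the 12 libraries alone. Each of these settings gave 0 calls above the product. The gene, also called OTULINL, is a relative of the deubiquitinase gene OTULIN and lies on chromosome 16 at 3964300 to 4000673 (gene ID 100518874). It was at 18.1, 11.7 and 20.9 CPM in control, 1.21, 1.51 and 1.96 CPM with poly I:C, 2.25, 2.93 and 3.35 CPM with B. subtilis, and 1.66, 1.51 and 1.6 CPM with the combined treatment. Every treated library lay below every control library, and the combined libraries overlapped those with poly I:C alone. Poly I:C lowered it by 3.43 (log2 -3.43, adjusted p = 1.17e-05) and B. subtilis by 2.57 (log2 -2.57, adjusted p = 0.000435), and the combined treatment was no further from control than poly I:C (log2 -3.41, adjusted p = 7.95e-06). The interaction was 2.59 (SE 0.41, adjusted p = 0.0456), and 2.87, 2.37 and 2.53 in sets A, B and C. Multiplied falls would have left 0.267 CPM. Added falls would pass below 0, which no level can do, so the departure here is one from the product alone.

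**Figure D2:**
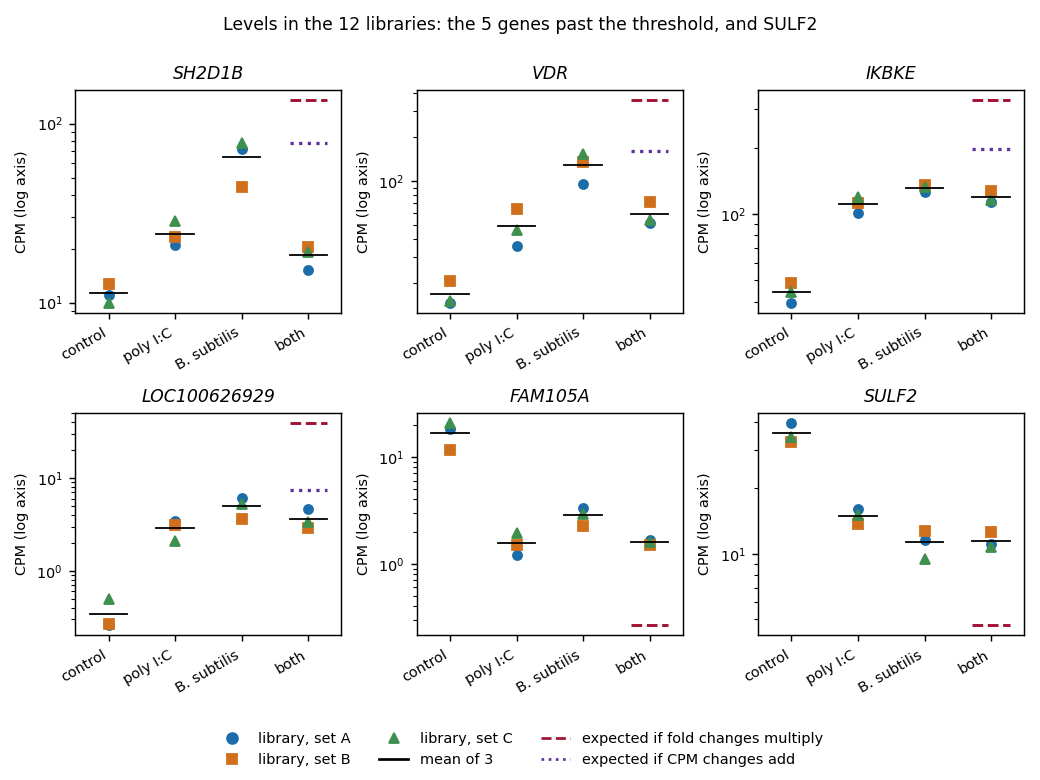
CPM (log axis) of the 5 genes past the threshold without a block, and of SULF2, in each of the 12 libraries by treatment, with marker shapes for the library sets A, B and C, a bar at the mean of 3, and dashed and dotted lines for the levels expected if fold changes multiply and if CPM changes add (the latter not drawn where below 0, in FAM105A and SULF2). SH2D1B and VDR are highest with B. subtilis alone and lower with both, and the combined level is below the dashed line in SH2D1B, VDR, IKBKE and LOC100626929 and above it in FAM105A and SULF2.

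None of the 5 calls held in every alternative, although each kept its sign in all 29 settings. The number of settings in which it passed was 14 for SH2D1B, 11 for VDR, 10 for LOC100626929 and 9 each for IKBKE and FAM105A. With RLE size factors only SH2D1B passed, and with library totals only SH2D1B and LOC100626929. None of the 5 passed with the pig number as a block in all 18 libraries or on leaving out any 1 pig number. The same held for the set block without set A or without set C. With the library set as a block the adjusted p was 0.00174 for SH2D1B and VDR, 0.00323 for LOC100626929, 0.00401 for IKBKE and 0.00541 for FAM105A.

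The 24 genes with the smallest p hold the 5 calls and 19 genes that did not pass without a block, at adjusted p of 0.0676 to 0.11. All 24 passed with the library set as a block, and each had 1 sign in all 3 sets and in all 29 settings. The genes were picked by p in the same libraries that the sets and settings reuse, so neither is further evidence. Of the 20 with a negative interaction, all were higher with B. subtilis alone than in control (adjusted p from 0.000435 to 0.0242), and the 4 with a positive one were all lower. B. subtilis against control is 1 arm of the interaction, so this is a description of the shape and not further evidence.

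Most of the 20 had the shape of IKBKE, with a combined level near that of the higher single stimulus. ZC3H12A, whose product Regnase-1 degrades cytokine mRNAs, stood at 27.5 ± 5.44 CPM in control, 199 ± 11 with poly I:C, 247 ± 16 with B. subtilis and 351 ± 54.3 with the combined treatment, 84% of the added expectation. PIK3R1, the regulatory subunit of PI3-kinase, was at 111 ± 13.5, 384 ± 25.6, 256 ± 16 and 370 ± 40 CPM in the same order (interaction -1.26, adjusted p = 0.0968; 0.0101 with the set block). SLC39A14, the zinc and iron importer ZIP14, was at 53.4 ± 12.3, 425 ± 134, 563 ± 69.5 and 646 ± 149 CPM, or 69.1% of the added expectation. For PIK3R1 and SLC39A14 the combined libraries overlapped those of the higher single treatment, and for ZC3H12A they lay above them, at 289 to 383 CPM.

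TNFAIP6, which encodes the hyaluronan-binding protein TSG-6, was near 1 level in all treated groups at 1291 ± 306, 1143 ± 197 and 1417 ± 178 CPM, against 145 ± 88.1 in control. IFNLR1, the specific receptor chain for interferon lambda, went from 0.853 ± 0.348 CPM to 22.6 ± 9.32 with poly I:C, 14.5 ± 3.34 with B. subtilis and 30.1 ± 15.3 with the combined treatment (interaction -3.67, adjusted p = 0.0968; 0.00966 with the set block). RALGDS, an exchange factor for Ral GTPases, reached 62.9% of its added expectation, and ABCC1, the exporter MRP1, reached 48.5%. The remaining ones were the transporter gene SLC36A4, the receptor gene GPR171, PRRT4, TECTB, ZSCAN25 and the unnamed loci LOC106510042 and LOC100525396, with IL23A and CCL20 described below. ZSCAN25 was like SH2D1B, since its combined level of 2.25 ± 0.476 CPM lay below B. subtilis alone at 6.6 ± 0.874 (log2 -1.54, adjusted p = 0.00131).

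The positive side of the 24 held SULF2, ADAP1 and NDUFS3 beside FAM105A. SULF2, a sulfatase that edits heparan sulfate outside the cell, was at 39.9, 32.6 and 34.3 CPM in control, 16.1, 13.7 and 15 CPM with poly I:C, 12.7, 9.44 and 11.6 CPM with B. subtilis, and 11.1, 12.6 and 10.7 CPM with the combined treatment. All treated libraries were below control, and B. subtilis and the combined treatment overlapped (interaction 1.28, SE 0.23, adjusted p = 0.0727; 0.00484 with the set block). ADAP1, a phosphoinositide-binding GTPase-activating protein for Arf6, fell from 27.7 ± 3.91 CPM to 4.57 ± 1.45 with poly I:C, 9.08 ± 2.48 with B. subtilis and 5.64 ± 1.1 with the combined treatment (interaction 1.91, adjusted p = 0.101; 0.00323 with the set block). NDUFS3, a core subunit of respiratory complex I, differed from them in that its combined level of 47.3 ± 13.6 CPM lay above B. subtilis alone at 30.1 ± 0.812 (log2 0.65, adjusted p = 0.0319). Its combined libraries spread from 32 CPM in pig 2 to 57.8 CPM in pig 1.

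**Figure D3:**
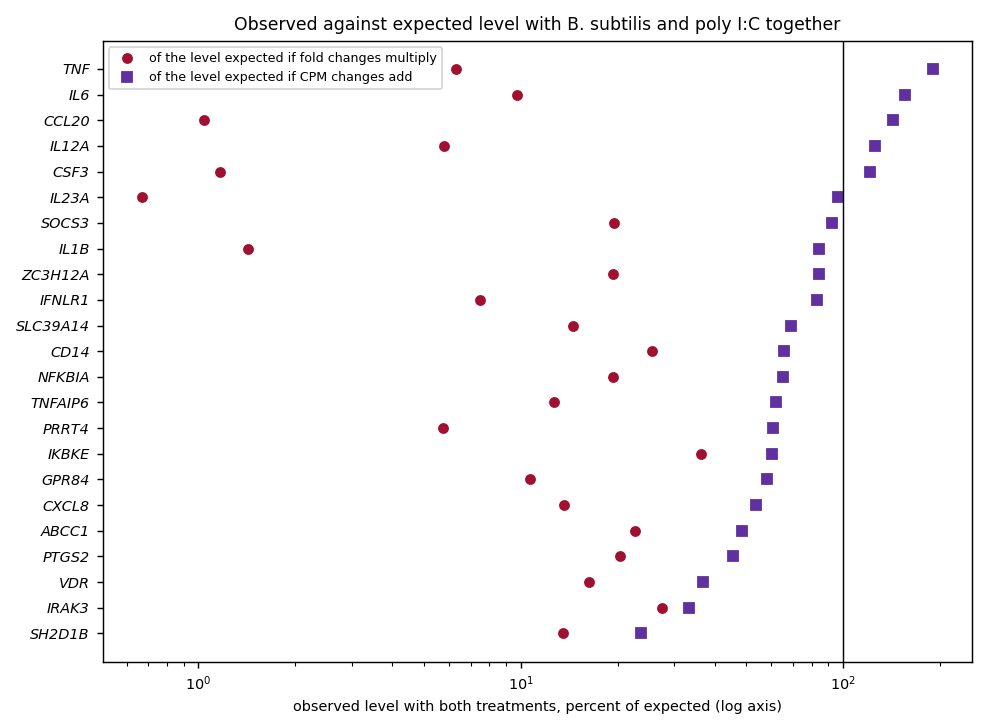
Observed level of the combined treatment as a percent of the level expected if fold changes multiply (circles) and if CPM changes add (squares), on a log axis with a line at 100%, for genes chosen after their values were seen. Every circle lies below the line, from 0.669% for IL23A to 36.2% for IKBKE, while the squares run from 23.6% for SH2D1B to 190% for TNF.

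For several cytokine and chemokine genes the interaction was strongly negative while the combined level was near or above the sum. IL23A, the specific subunit of interleukin-23, stood at 2.2, 2.47 and 0.71 CPM in control, 226, 514 and 254 CPM with poly I:C, 977, 1114 and 723 CPM with B. subtilis, and 897, 1204 and 1580 CPM with the combined treatment. The groups with B. subtilis overlapped each other and lay above those without it. Its interaction of -7.14 (SE 1.28) did not pass without a block (adjusted p = 0.0727) and passed with the set block (0.00869). The product would require 178618 CPM, and the combined mean of 1227 ± 342 CPM was 96.8% of the added expectation of 1267 CPM. IL23A overlaps STAT2, itself at 1225 CPM, so that reads from the stretch both genes cover cannot be told apart. In control STAT2 was at 291 ± 14.9 CPM, where IL23A was at 1.79 ± 0.949. The part of shared reads in the IL23A counts was not tested.

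CCL20, the ligand of CCR6, was at 2.07 ± 1.99 CPM in control, 350 ± 175 with poly I:C, 527 ± 180 with B. subtilis and 1253 ± 438 with the combined treatment. The 3 combined libraries, at 1744, 903 and 1111 CPM, lay above all others, at 143% of the added expectation, although the interaction was -6.16 (adjusted p = 0.0968; 0.0122 with the set block). It was the only one of the 20 genes with a negative interaction whose combined level exceeded the sum.

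IL1B, which encodes interleukin-1 beta and has a near copy in the pig genome that could share its reads, stood at 46.3, 226 and 19.7 CPM in control, 3224, 11541 and 4785 CPM with poly I:C, 12650, 14056 and 6911 CPM with B. subtilis, and 10734, 15880 and 17980 CPM with the combined treatment. The treated groups overlapped, and the combined mean was 84.3% of the added expectation (interaction -5.66, adjusted p = 0.174; 0.0158 with the set block). CXCL8, the main neutrophil-attracting chemokine, began from 3691 ± 1416 CPM and was at 22282 ± 8271 with poly I:C, 32448 ± 2901 with B. subtilis and 27523 ± 8262 with the combined treatment, 53.9% of the sum (interaction -2.83, adjusted p = 0.156; 0.0158 with the set block). CSF3, which encodes the granulocyte growth factor G-CSF, was at 9.66 ± 10.9, 1239 ± 1020, 1515 ± 562 and 3318 ± 539 CPM in the 4 groups, with all combined libraries above the rest and 121% of the sum (interaction -5.87, adjusted p = 0.156; 0.0158 with the set block).

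TNF departed from the others in how far its combined level lay above the sum. It was at 18.8, 19 and 23.3 CPM in control, 959, 1706 and 1419 CPM with poly I:C, 1377, 1698 and 637 CPM with B. subtilis, and 5130, 3157 and 6393 CPM with the combined treatment. The single treatments overlapped and the combined libraries lay above them without overlap, at 190% of the added expectation. The interaction of -4.08 (SE 1.24) did not pass without a block (adjusted p = 0.343) or with the set block (0.0517), and the difference between combined treatment and B. subtilis alone did not pass either (log2 1.98, adjusted p = 0.123).

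The subunits of interleukin-12 and IL6 were at low levels. IL12A stood at 0.0818 ± 0.0559, 9.42 ± 6.85, 4.29 ± 2.78 and 17.1 ± 7.81 CPM in the 4 groups, 126% of the sum (interaction -4.71, adjusted p = 0.343; 0.0394 with the set block). IL6 was at 0.0875 ± 0.126, 9.54 ± 13.1, 5.89 ± 7.2 and 24 ± 14.7 CPM, 156% of the sum (interaction -4.8, adjusted p = 0.516; 0.0969 with the set block). IL12B had 0 counts in all 3 control libraries, so no interaction is given for it. Its level was 0.201, 0.594 and 4.8 CPM with poly I:C, 0.83, 9.34 and 0.279 CPM with B. subtilis, and 4.79, 2.24 and 60.7 CPM with the combined treatment, where the pig 3 library held most of the signal. IL10, the main anti-inflammatory cytokine, was at 1.57 ± 1.45, 5.19 ± 3.94, 4.24 ± 3.42 and 8.02 ± 3.1 CPM (interaction -0.82, SE 0.96, adjusted p = 0.815).

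**Figure D4:**
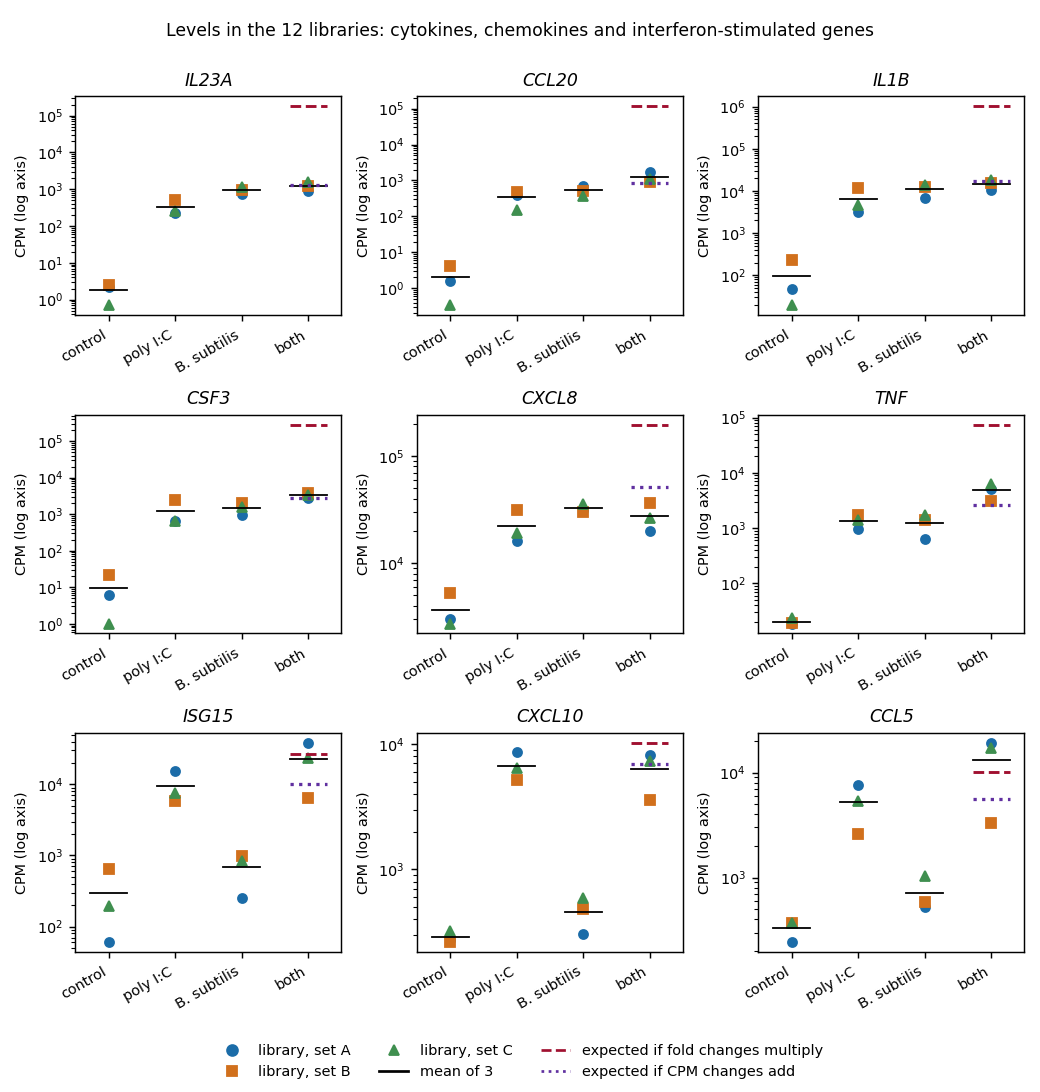
CPM (log axis) in each of the 12 libraries for 6 cytokine and chemokine genes and 3 interferon-route genes, by treatment, with marker shapes for the library sets, a bar at the mean of 3, and dashed and dotted lines for the levels expected if fold changes multiply and if CPM changes add. IL1B, CXCL8 and IL23A lie far below the dashed line, TNF is highest in all 3 combined libraries, and ISG15, CXCL10 and CCL5 are highest in the groups with poly I:C.

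For the interferon-route genes named here no departure from the product was detected, and their difference between B. subtilis alone and control did not pass either. ISG15, the ubiquitin-like modifier, was at 298 ± 304 CPM in control, 9604 ± 5066 with poly I:C, 689 ± 383 with B. subtilis and 22657 ± 15821 with the combined treatment (interaction 0.03, SE 1.07, adjusted p = 0.995). Its combined libraries were at 38015, 6410 and 23545 CPM, with pig 2 inside the poly I:C range and the others above it. CXCL10, the ligand of CXCR3, was at 288 ± 31.1, 6707 ± 1774, 459 ± 141 and 6365 ± 2474 CPM, 92.5% of the sum (interaction -0.75, SE 0.63, adjusted p = 0.736), and CXCL11 had an interaction of -0.77 (SE 1.04, adjusted p = 0.844). MX1, an antiviral dynamin-like GTPase, was at 359 ± 323, 4197 ± 473, 745 ± 386 and 3627 ± 176 CPM (interaction -1.26, SE 0.76, adjusted p = 0.656).

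The combined means of CCL5 and IFNB1 stood above the sum, like that of ISG15 at 227% of it. CCL5, a chemokine for T cells and monocytes, was at 7664, 2616 and 5326 CPM with poly I:C and at 19044, 3330 and 17286 CPM with the combined treatment, against 328 ± 73.2 in control and 712 ± 274 with B. subtilis. Its mean was 237% of the sum and 103% of the product in geometric means (interaction 0.23, SE 0.8, adjusted p = 0.949). IFNB1, interferon beta itself, was at 0.1 ± 0.148, 15.7 ± 13.2, 0.437 ± 0.335 and 39.2 ± 8.69 CPM, 245% of the sum (interaction -0.91, SE 1.47, adjusted p = 0.872). In edgeR's fit to all libraries neither gene differed detectably between the combined treatment and poly I:C alone (log2 1.35, adjusted p = 0.447 for CCL5, and 1.32, adjusted p = 0.591 for IFNB1). For CCL5 the combined library of pig 2 was the low one. The SE of both interactions leaves room for departures of over 1 log2 unit in either direction.

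Toll-like receptor genes differed among themselves. TLR8, an endosomal RNA sensor, was at 64.2 ± 9.2 CPM in control, 10 ± 2.09 with poly I:C, 7.07 ± 3.54 with B. subtilis and 4.92 ± 1.1 with the combined treatment (interaction 2.16, adjusted p = 0.259; 0.0329 with the set block). TLR7, which overlaps TLR8 in the annotation so that reads may be shared, was at 37.8 ± 4.87 and 38.4 ± 6.44 CPM without B. subtilis and 8.73 ± 2.92 and 15.3 ± 6.72 CPM with it, alone and combined (interaction 0.79, adjusted p = 0.658). TLR2 was at 168 ± 64.6, 424 ± 98.4, 328 ± 19.4 and 478 ± 45.1 CPM (interaction -0.79, adjusted p = 0.539; 0.0514 with the set block). TLR3 had group means between 5.02 and 9.32 CPM (interaction -0.08, SE 0.82, adjusted p = 0.984), with a combined library of pig 2 at 11 CPM and the others at 1.93 and 2.13.

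Among feedback genes, NFKBIA and SOCS3 had like levels with either stimulus. NFKBIA, the NF-kB inhibitor that NF-kB itself induces, was at 159 ± 45.5, 1006 ± 151, 913 ± 61.9 and 1146 ± 206 CPM (interaction -2.33, adjusted p = 0.131; 0.0165 with the set block). The treated groups were close together and far above control. SOCS3, the inhibitor of interleukin-6 type signalling, was at 73.7 ± 24.5, 674 ± 351, 768 ± 258 and 1268 ± 304 CPM (interaction -2.47, adjusted p = 0.308; 0.0312 with the set block). SOCS1, the inhibitor of interferon receptor signalling, stood highest in the groups with poly I:C, at 12.9 ± 2.09, 169 ± 18.1, 49 ± 4.76 and 160 ± 13.1 CPM (interaction -2, adjusted p = 0.307; 0.0495 with the set block). B. subtilis alone raised it as well (log2 1.93, adjusted p = 0.016).

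ACOD1, which makes the antimicrobial metabolite itaconate, also stood highest in the groups with poly I:C, at 103 ± 41.6, 2611 ± 415, 500 ± 42.5 and 3034 ± 680 CPM, 101% of the sum (interaction -2.07, adjusted p = 0.355; 0.0559 with the set block). It too was raised by B. subtilis alone (log2 2.28, adjusted p = 0.0131). CSF1R, the receptor for macrophage colony-stimulating factor, went the other way: B. subtilis alone lowered it from 393 ± 84.9 to 160 ± 34 CPM (log2 -1.29, adjusted p = 0.0129), while it stood at 270 ± 74 CPM with poly I:C and 249 ± 69.8 CPM with the combined treatment. The combined libraries overlapped those of B. subtilis alone, and the interaction was 1.17 (adjusted p = 0.37; 0.0163 with the set block).

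The gene lists are described by their counts and medians, and most members of each did not pass. Of 27 tested proinflammatory cytokine genes, the median interaction was -2.86, against -0.02 over all genes, and 9 were below the product with the set block and 0 above: IL1A, IL1B, IL12A, IL23A, EBI3, IL18, IL33, OSM and CSF3. The list rose with poly I:C at 13 genes, with B. subtilis at 13 and with the combined treatment at 20. Over all genes 12.9%, 2.75% and 19% rose in these comparisons. Of 30 genes of the NF-kB pathway, 9 were below and 0 above (median -0.92): IKBKE, NFKBIA, NFKBIZ, TNFAIP3, TNIP3, IER3, MAP3K8, ICAM1 and SOD2. Regulatory and feedback genes gave 8 of 29 below and 0 above (median -0.83), and matrix and tissue factor genes 4 of 22 below and 1 above (median -1.16). The shares below were 33.3%, 30%, 27.6% and 18.2% in these lists, beside 2.34% for all genes. Without a block IKBKE was the only call in these 4 lists.

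Of 24 chemokine genes CXCL2, CXCL8 and CCL20 were below the product (12.5%, median -0.88). Interferon-stimulated genes were 52, of which all 52 rose with poly I:C, 1 with B. subtilis and all 52 with the combined treatment. Over all genes 12.9%, 2.75% and 19% rose, so the count with B. subtilis is not read as a trait of the list. The list had a median interaction of -0.8, and 46 of the 52 estimates were negative (6945 of 13592 over all genes). Only STAT2 and ADAR passed with the set block (3.85%, beside 2.34% of all genes below), and STAT2 shares its overlap with IL23A. Pattern recognition genes gave TLR8 above and CD14, TIRAP, IRAK2 and IRAK3 below, out of 32 (median -0.35). Antigen presentation genes, of which 19 of 28 rose with poly I:C and 1 with B. subtilis (12.9% and 2.75% of all genes), had a median of 0.15. They had 1 call, CD86 below (3.57%).

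The alveolar macrophage list had calls above the product and 0 below. Its 34 genes had a median of 0.27, and CEBPA, CSF1R, FABP5 and CD36 were above with the set block (11.8%, beside 1.49% of all genes). CEBPA is a transcription factor of the myeloid lineage, FABP5 carries fatty acids in the cell and CD36 takes up lipids. The summed level of the defining markers, CSF1R among them, ranged as given above, and its part in these calls was not tested. Cell cycle genes had a median of 0.39 over 31 genes, with E2F1 the single call above. E2F1, a transcription factor of the entry into S phase, was at 20.8 ± 7.56 CPM in control and 6.1 ± 2.56, 6.7 ± 3.38 and 6.49 ± 2.24 CPM in the 3 treated groups (interaction 1.72, adjusted p = 0.409; 0.00323 with the set block).

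In the vitamin D axis VDR and CD14 were below out of 13 (15.4%, median -0.68). Among SLAM receptors and their adaptors SH2D1B and FYN were below out of 11 (18.2%, median 0.04). Both lists were chosen with earlier results known and hold a gene already called above, so their shares are not further evidence. Genes of cell death gave 3 below (15.8%) and 1 above out of 19 (median -0.43), and the antimicrobial and metabolic effectors 2 below out of 20 (10%, median -0.67). Over all genes 2.34% were below and 1.49% above. Medians lay between -0.06 and -0.02 for glycolysis and hypoxia, the unfolded protein response, the NRF2 response and prostaglandin and leukotriene genes, with 0 to 2 calls in a direction in each. Interferons and their receptors had 1 call, IFNLR1, among 8 tested.

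**Figure D5:**
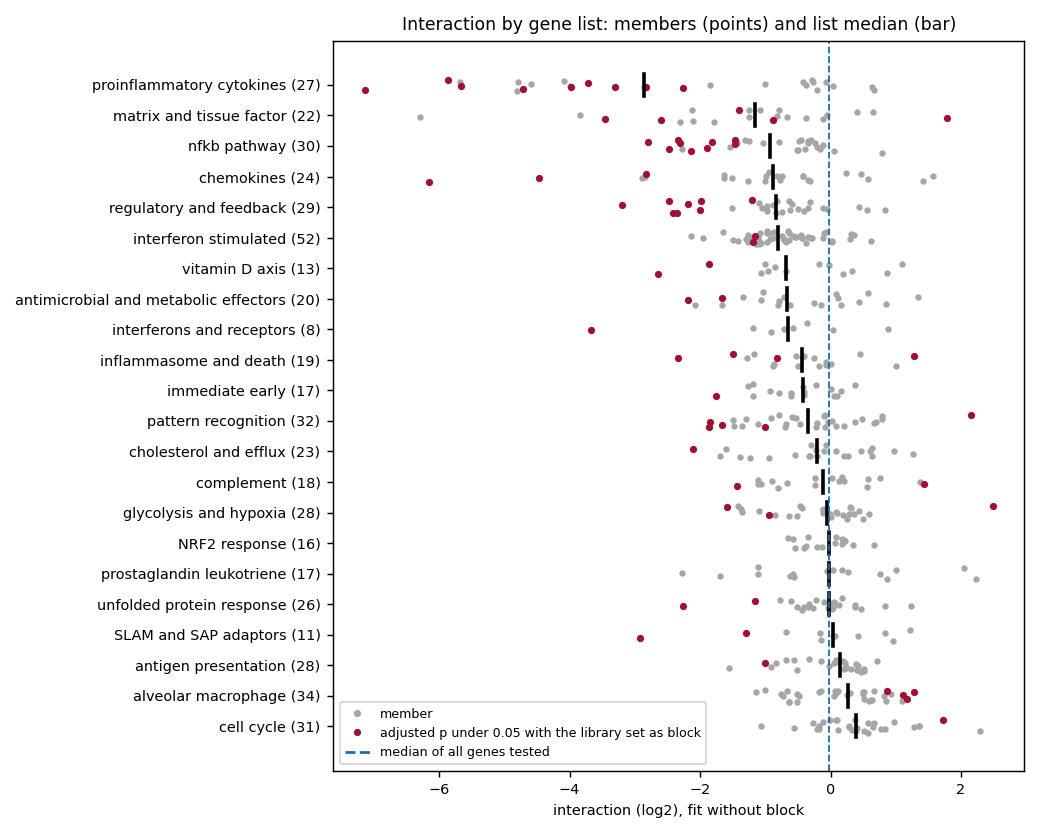
Log2 interaction without a block of each tested gene (points) and the list median (bar) for 22 gene lists ordered by median, with the number tested in brackets, genes past the threshold with the library set block coloured, and a dashed line at the median of all genes. Proinflammatory cytokines lie lowest at a median of -2.86, and the alveolar macrophage and cell cycle lists lie above 0 at 0.27 and 0.39.

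The same contrast for E. faecium gave 0 calls by edgeR with and without the set block, with 95 and 301 genes at an unadjusted p under 0.05 without and with it, and 0 by DESeq2. That alone does not show that the bacteria differ, so the difference between the 2 interactions was tested. It passed at 0 genes without a block, with 1149 at an unadjusted p under 0.05, and at 30 genes with the set block (0.221%), 14 with a higher value for B. subtilis (0.103%) and 16 with a lower one (0.118%). SH2D1B was among them, with an interaction of -2.92 for B. subtilis and -0.34 for E. faecium (difference with the set block -2.57, adjusted p = 0.00521), and VDR with -2.65 and -0.75 (difference -1.88, adjusted p = 0.0251). FAM105A stood at 2.59 and 0.34 (difference 2.28, adjusted p = 0.0345), ADAP1 at 1.91 and 0.21, SULF2 at 1.28 and 0.25, and E2F1 at 1.72 and 0.12. WNT5B, a secreted Wnt ligand, and TYRO3, a receptor kinase of the family that serves the uptake of dying cells, were singled out after their values were seen and were higher for B. subtilis, at 1.85 against -0.11 and 1.67 against 0.21. For IL23A the difference of -2.62 and for CCL20 that of -2.02 did not pass (adjusted p = 0.196 and 0.265). By edgeR the 30 calls were made with the block only, and they became 0 without set A, 3081 without set B and 0 without set C. Without a block, leaving out the combined library of pig 2 gave 1341. The E. faecium interaction, at 0 calls with the block, had 31 without set B.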

How the data were processed

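The authors deposited raw counts of reads per gene for 18 libraries. The submitters' processing notes name the build Sscrofa11.1 and DESeq2. The aligner, the counting tool, the annotation and the use of strand were not given in the sources used here. Of 30686 rows, 30335 gene IDs matched RefSeq's gene table of Sscrofa11.1, and 351 rows without a symbol held 0.515 to 1.04% of a library's counts. Counts were analysed in R 4.3.3 with edgeR 4.0.16 (quasi-likelihood, TMM, filterByExpr with a minimum count of 10, 1 mean per treatment over all 18 libraries, no block, adjusted p of 0.05), which tested 13592 genes and leaves 12 residual degrees of freedom. SE is the log2 value over the root of F. Expected levels use group geometric means (product, with 0.5 counts added) or arithmetic means (sum). Library sets were found from residuals on odd-numbered chromosomes. Alternatives were RLE factors, library totals, no filter, 12 libraries, pig and set blocks, DESeq2 1.42.0 and leaving out libraries.

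Data were simulated for the interaction in 13592 genes with 200 changed. The fit without a block recovered 4, 42, 82 and 96% of changes of 1, 2, 3 and 4 log2 units, and with the set block 30, 96, 98 and 98%. False calls among the other genes numbered 8 without a block and 7 with it. The changed genes were drawn from those above a minimum mean level, so these shares do not cover genes at low levels. With the set block the counts were simulated and fitted with the same sets, so the step of finding sets is not covered. Without a block, p-values measure the spread between the labelled pigs within groups, which still holds the deviations shared within a library set. With the set block they measure the spread left once the sets, found from these same data, are removed (10 residual degrees of freedom). Named genes were the 24 with the smallest p (all calls among them), 26 fixed genes, and in each of 28 lists the calls or the 2 smallest p; the 12 lowest and 12 highest calls under the set block with a group mean of at least 10 CPM were added after the data had been seen. The interaction, the lists and the genes were chosen with earlier results of these data known.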

Additional observations from a re-analysis of the deposited data

Results flagged for a closer look

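Each value here is a result in which the effect of B. subtilis differed between cells with and without poly I:C by a test of that difference, or in which the 2 bacteria differed. The log2 interaction was -3.51 for LOC100626929, -2.92 for SH2D1B, -2.65 for VDR, -1.46 for IKBKE and 2.59 for FAM105A, with 3 libraries per group and the same sign in all 3 library sets for each gene. The sets hold the same libraries that gave these calls, so the shared sign is not further evidence. The difference between the interactions of B. subtilis and E. faecium passed at 30 genes with the library set block (0 without set A or without set C, 3081 without set B) and at 0 genes without it by edgeR, where 1149 had an unadjusted p under 0.05, and at 14 genes by DESeq2. Groups of 3 libraries give little basis for a test of single outlying libraries, but the interaction calls depended on 1 of them. Leaving out the combined library of pig 2 moved the edgeR count without a block from 5 to 514 genes.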

How the results depend on the processing

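Calls of the interaction (higher and lower in brackets) numbered 5 without a block, 1 with RLE size factors (0 and 1), 2 with library totals only (0 and 2), 6 with no filter on low counts (0 and 6), 14 with the 12 libraries only (0 and 14), 115 with DESeq2 (29 and 86) and 521 with the library set block (203 and 318). The set block gave 412 calls in the 12 libraries (106 and 306), 551 with library totals (244 and 307) and 492 with RLE factors (207 and 285), all 3 added after the data had been seen. The pig number as a replicate block gave 0 calls (0 and 0), and 29 in the 12 libraries (1 and 28). The numbers did not pair the 4 groups: same-numbered libraries correlated at -0.52 to 0.73, and B. subtilis with its own number in the other groups at -0.52 to -0.25. Leaving out libraries gave 0 to 1910 calls (0 to 806 and 0 to 1104), with 0 to 514 (0 to 162 and 0 to 352) for a single library or pig number without a block, and with the block 2 without set A, 1910 without set B and 0 without set C. With the set block poly I:C changed 5668 genes, B. subtilis 2504 and the combined treatment 7416, and combined treatment differed from B. subtilis at 5624; the cause of these differences in count was not tested. ISG15 changed sign to -0.01 with the set block in 12 libraries and was 0 with the block and library totals, and TLR3 was 0.05 with library totals. On leaving out libraries the interaction ranged from -1.21 to 0.74 for ISG15 (at lowest -0.69 with the set block), -1.41 to 0.43 for TLR3 (at highest 0.19 with the set block), -0.27 to 0.69 for CCL5, -3.11 to 0.16 for IFNB1, -1.9 to 0.32 for IL10, -0.02 to 1.19 for TLR7, -9.82 to 1.18 for CDCP1, -7.57 to 0.37 for SERPINB2, -2.37 to 0.43 for EPCAM, -0.94 to 2.4 for AGER, -1.19 to 0.06 for FCER1A, -0.03 to 3.04 for HBB and -0.46 to 1.07 for PECAM1. The 24 genes with the smallest p kept their sign in all 696 combinations of gene and setting. They were picked by p in these same libraries, so a kept sign is not further evidence. With 3 libraries per group, changes of 1 log2 unit were mostly not detectable.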

Other observations

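Genes with the most extreme interactions under the library set block were looked at after the data had been seen, so their values are a description. S100A2, a small calcium-binding protein gene, had its highest mean with the combined treatment: 2.36 ± 0.667 CPM in control, 9.52 ± 4.71 with poly I:C, 0.847 ± 0.353 with B. subtilis and 17.8 ± 9.85 with both (interaction 2.37; adjusted p = 0.26 without a block and 0.0432 with it). BATF, an AP-1 family transcription factor, stood at 6.2 ± 0.466, 3.59 ± 1.2, 4.37 ± 2.05 and 10.9 ± 6.84 CPM, and its combined libraries were at 16.8, 3.41 and 12.6 CPM, with pig 2 in the range of the single treatments. MARVELD1 and TSPAN2 had the shape of FAM105A, with 36 ± 12.4 and 13.3 ± 4.17 CPM in control and 4.6 to 9.07 CPM or 3.9 to 4.6 CPM with any treatment.

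Among them were genes with 1 high library in each group. SERPINB2, which encodes the plasminogen activator inhibitor PAI-2, was at 3.77, 184 and 3.55 CPM in control, 27.3, 1593 and 51.8 CPM with poly I:C, 2101, 292 and 114 CPM with B. subtilis, and 53.4, 1825 and 133 CPM with both. The highest library of every group was the one in set B. CDCP1, a membrane glycoprotein gene, was highest in the same 4 libraries, at 3.24, 45.9, 75 and 53.4 CPM.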
